A study of Mus musculus with 9 samples.

Results

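The reactive astrocyte genes described here are 10 transcripts that astrocytes raise after injury or inflammation, chosen by symbol from the 55335 genes of the deposited table. All 10 (Gfap, Vim, Serpina3n, Lcn2, Cd44, Osmr, Timp1, Steap4, Aspg and S1pr3) had a row in the table. Bulk RNA was sequenced from the substantia nigra of mice in 3 groups of 3 libraries. The MPTP plus running mice were given MPTP into the peritoneum, which poisons dopaminergic neurons, in doses of 20 mg/kg, 2 times per week for 5 weeks, and had 2 months of voluntary wheel running that began after the first dose. The MPTP mice had the same injections without a wheel. The vehicle mice had saline injections on the same weekly schedule. All groups thus share repeated injections, and no group of running mice without MPTP is among the samples analysed here. No strain, sex or age is stated in the labels. The design text mentions 3 mice for each group without tying 1 mouse to 1 library, and p-values here therefore reflect only how these libraries vary, which may be technical.

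Astrocytes are the glial cells that clear glutamate and potassium, supply metabolites to neurons and contact blood vessels. When tissue is damaged they enlarge and raise intermediate filament proteins, secreted proteins and receptors, a state called reactive. Cytokines of the interleukin-6 family, acting through the shared receptor subunit gp130 and the transcription factor STAT3, are a well-known route to this state. In MPTP models of Parkinson disease, staining for GFAP in the nigra and striatum is a common readout of it.

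Values are FPKM, fragments scaled to transcript length and library size, as the authors deposited them, and can be compared between genes because they are per length. Each library sums to 318416 to 347524 FPKM, and 13413 to 13965 genes reach 1 FPKM in a library. Read counts are not among the values used. Steps between low values of 19530 genes with a single transcript place the deepest library at 1.22 times the shallowest, although only 49.1% to 51.4% of these values fell on a whole step within a tolerance of 2%. Astrocyte identity was clear in all libraries. The 15 homeostatic astrocyte markers, such as the water channel gene Aqp4 and the glutamate transporter gene Slc1a2, summed to 1336 to 1609 FPKM in MPTP plus running, 1216 to 1555 FPKM in MPTP and 1334 to 1362 FPKM in vehicle libraries. The dissected tissue was less uniform. Slc6a3, which encodes the dopamine transporter and marks nigral dopaminergic neurons, was at 0.149, 0 (as listed) and 10.6 FPKM in MPTP plus running libraries, at 2.75, 0.0377 and 14.4 FPKM in MPTP libraries and at 3.40, 1.41 and 10.8 FPKM in vehicle libraries (replicates 1, 2 and 3 in each). It was lowest in replicate 2 and highest in replicate 3 of every group, so this marker of the labelled tissue was at or near 0 in some libraries. The 10 dopaminergic neuron markers, Slc6a3 among them, did not follow it throughout as a sum. They summed to 51.6, 78.8 and 78.3 FPKM in MPTP plus running libraries, where replicate 2 was highest. In MPTP libraries the sums were 75.0, 47.6 and 96.9 FPKM, and in vehicle libraries 78.8, 52.7 and 66.2 FPKM. Aldh1a1 was the largest single part of the sum in every library. This gene was at 27.6, 46.8 and 30.7 FPKM in MPTP plus running libraries. In MPTP libraries it was at 42.1, 34.2 and 30.4 FPKM, and in vehicle libraries at 43.0, 31.2 and 22.1 FPKM. The order of the replicates in these sums thus depends in part on Aldh1a1. Choroid plexus markers, from tissue outside the nigra, summed to 951, 21.8 and 801 FPKM in MPTP plus running libraries, 1731, 958 and 2082 FPKM in MPTP libraries and 38.4, 47.2 and 347 FPKM in vehicle libraries. Their part in the results below was tested only by adding the choroid plexus score to the fit. In bulk tissue, fewer cells of a type and less RNA per cell cannot be told apart.

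The promoters of the 10 genes were searched for the paired half-site read by STAT factors, TTCNNNGAA, which reads the same on both strands. The windows are RefSeq's on GRCm38.p6 and run from 250 bases before the gene start to 50 bases after it. The motif was found in 2 of the 10 windows, those of Gfap and Steap4, and in 8.30% of all 32851 windows of that length. These windows are shown with the match in capitals, together with that of Serpina3n, which has no match and, of the 7 genes tested below, has the largest fitted differences in both comparisons of MPTP plus running mice. The Gfap window lies at chr11:102897151-102897450 on the minus strand, with the match starting at position -2 from the gene start. This RefSeq start lies inside the GENCODE span of Gfap, whose minus-strand start is at 102900912. The Steap4 window lies at chr5:7960222-7960521 on the plus strand, with the match starting at position -116. The Serpina3n window lies at chr12:104406458-104406757 on the plus strand. A match describes the letters only, and no measurement of STAT binding was made here.
Gfap: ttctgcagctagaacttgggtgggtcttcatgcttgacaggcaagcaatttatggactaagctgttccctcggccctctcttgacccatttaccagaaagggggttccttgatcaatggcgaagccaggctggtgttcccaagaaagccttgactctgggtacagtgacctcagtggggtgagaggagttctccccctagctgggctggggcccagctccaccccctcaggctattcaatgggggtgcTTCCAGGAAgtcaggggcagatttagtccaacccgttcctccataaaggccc
Steap4: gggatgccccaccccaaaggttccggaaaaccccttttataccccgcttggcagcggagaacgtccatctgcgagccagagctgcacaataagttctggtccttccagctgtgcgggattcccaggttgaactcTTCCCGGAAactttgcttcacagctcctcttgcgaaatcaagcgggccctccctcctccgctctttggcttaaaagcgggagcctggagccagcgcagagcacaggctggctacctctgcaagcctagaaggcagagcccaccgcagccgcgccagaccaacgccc
Serpina3n: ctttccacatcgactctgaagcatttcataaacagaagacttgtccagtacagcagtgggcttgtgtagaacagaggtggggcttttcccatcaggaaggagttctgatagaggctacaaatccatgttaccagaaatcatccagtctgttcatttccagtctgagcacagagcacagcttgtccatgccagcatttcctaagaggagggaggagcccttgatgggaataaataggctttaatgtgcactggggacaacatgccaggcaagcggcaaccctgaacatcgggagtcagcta

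The 10 genes spanned a wide range of levels, and the order among the abundant ones held in every library. Gfap averaged 65.1 FPKM over the 9 libraries, above 97.1% of the 15997 genes that were tested. Serpina3n averaged 9.04 FPKM, Vim 5.66 FPKM and S1pr3 1.61 FPKM. The other 6 averaged less than 1 FPKM, with Aspg at 0.749, Timp1 at 0.586, Cd44 at 0.516, Osmr at 0.467, Lcn2 at 0.379 and Steap4 at 0.174 FPKM. Gfap alone made up 72.1% to 82.0% of the summed FPKM of the 10 genes in a library. None of the 10 was listed at 0 in any library. The test took genes that averaged 0.5 FPKM or more across the 9 libraries. Of the 10, 7 did so, while Lcn2, Osmr and Steap4 did not.

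Gfap encodes glial fibrillary acidic protein, the main intermediate filament protein of astrocytes, and is the usual marker of the reactive state. It was at 59.3, 89.6 and 79.9 FPKM in MPTP plus running libraries, at 61.8, 74.9 and 54.0 FPKM in MPTP libraries and at 42.4, 68.9 and 55.4 FPKM in vehicle libraries. The lowest value was in a vehicle library and the 2 highest were in MPTP plus running libraries, but the 3 groups overlapped. The means were 76.2 ± 15.5 FPKM with MPTP plus running, 63.6 ± 10.6 FPKM with MPTP and 55.6 ± 13.2 FPKM with vehicle (SD, n = 3 each), and neighbours in this order did not differ beyond their spread. Between MPTP and vehicle the log2 fold change of FPKM + 1 was 0.21 (SE 0.21, 95% confidence interval -0.27 to 0.69, limma with Benjamini-Hochberg adjusted p = 0.991). With MPTP plus running it was 0.46 against vehicle (SE 0.21, interval -0.024 to 0.94, limma adjusted p = 0.753) and 0.25 against MPTP (SE 0.21, interval -0.23 to 0.73, limma adjusted p = 0.9999). Taken as a percentage of the summed homeostatic astrocyte markers of the same library, Gfap was at 5.30 ± 0.842% in MPTP plus running, 4.47 ± 0.330% in MPTP and 4.12 ± 1.02% in vehicle libraries (SD, n = 3 each), in the same order as the FPKM. Glul, at 432 to 571 FPKM, was the largest part of that sum in every library, so the percentage is not a level per astrocyte.

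Vim encodes vimentin, the second filament protein of reactive astrocytes, which endothelial, mural and ependymal cells express as well. It was at 5.60, 4.36 and 6.12 FPKM in MPTP plus running libraries, at 3.79, 6.70 and 5.86 FPKM in MPTP libraries and at 6.12, 7.40 and 4.99 FPKM in vehicle libraries. Its group means were in another order than those of Gfap, at 5.36 ± 0.905, 5.45 ± 1.499 and 6.17 ± 1.21 FPKM in MPTP plus running, MPTP and vehicle mice (SD, n = 3 each). The log2 fold change was -0.17 between MPTP and vehicle (SE 0.20, interval -0.62 to 0.29, limma adjusted p = 0.991). Gfap lies on chromosome 11 at 102887336 to 102900912 on the minus strand, and Vim on chromosome 2 at 13573927 to 13582826 on the plus strand (GRCm38, GENCODE M21, where all 10 genes are protein coding). Gfap lies inside the span of the long noncoding RNA gene Gm26668 on the opposite strand, with no shared exon in the annotation.

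**Figure D1:**
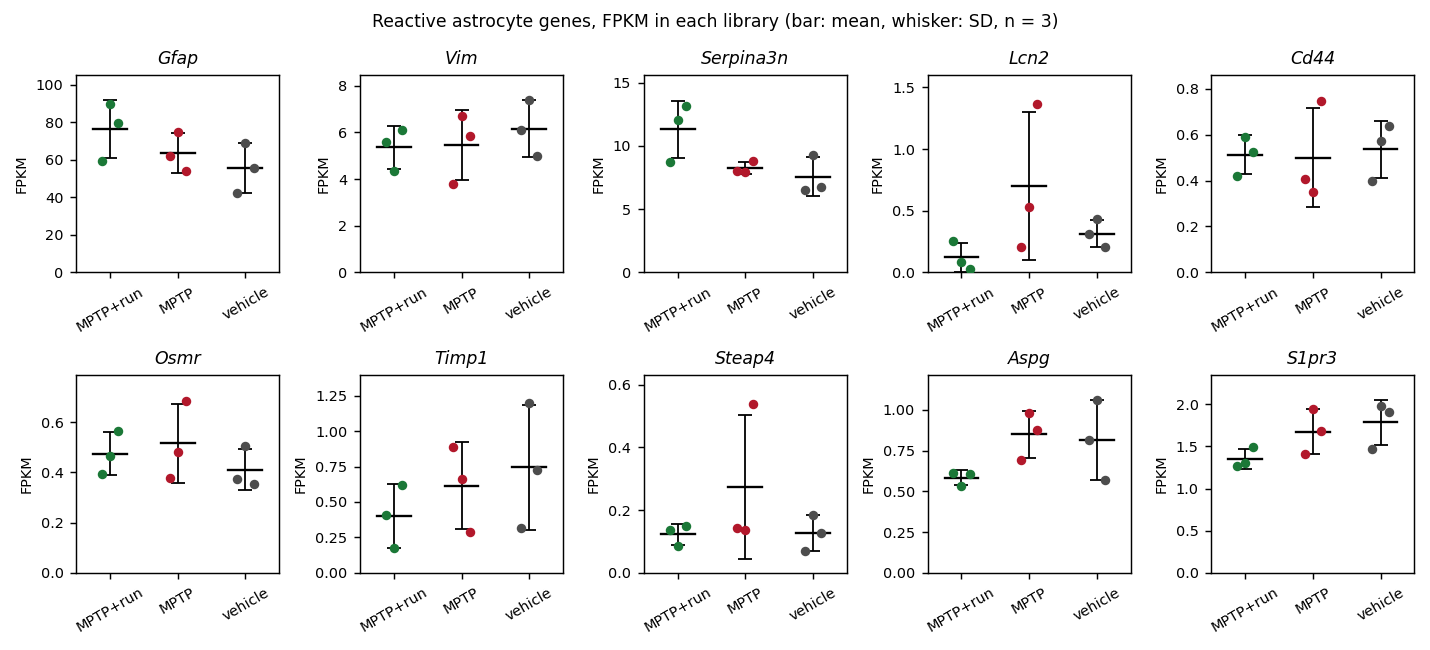
FPKM of each of the 10 genes (vertical axes start at 0) in MPTP plus running, MPTP and vehicle libraries. Points are libraries, horizontal bars are means and whiskers are SD (n = 3). Aspg is the 1 gene with all 3 MPTP plus running libraries (0.533 to 0.615 FPKM) below all 3 MPTP libraries (0.693 to 0.982 FPKM), and the points of the other genes interleave.

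Serpina3n encodes a secreted serine protease inhibitor that is among the most strongly raised transcripts of reactive astrocytes in mice. It was at 8.75, 12.02 and 13.2 FPKM in MPTP plus running libraries, at 8.02, 7.93 and 8.80 FPKM in MPTP libraries and at 6.54, 9.32 and 6.79 FPKM in vehicle libraries. MPTP plus running replicates 2 and 3 were above every other library, and replicate 1 lay among the MPTP and vehicle values. The means were 11.3 ± 2.29 FPKM with MPTP plus running, 8.25 ± 0.478 FPKM with MPTP and 7.55 ± 1.54 FPKM with vehicle (SD, n = 3 each). This gave the largest fitted differences of the 7 tested genes in both comparisons that involve running mice, with a log2 fold change of 0.40 against MPTP (SE 0.16, interval 0.024 to 0.77, unadjusted p = 0.0393, limma adjusted p = 0.9999) and 0.52 against vehicle (SE 0.16, interval 0.15 to 0.89, unadjusted p = 0.0113, limma adjusted p = 0.753). Neither passed the threshold of 0.05. Between MPTP and vehicle it was 0.13 (SE 0.16, interval -0.24 to 0.50, limma adjusted p = 0.991). Over 19 other settings the log2 fold change against vehicle lay between 0.41 and 0.68, with adjusted p from 0.430 to 0.999. Serpina3n (chromosome 12, 104406729 to 104414329, plus strand) sits in a cluster of closely related Serpina3 genes, so its share of reads is uncertain.

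Lcn2 encodes lipocalin-2, a secreted carrier of iron-binding siderophores that astrocytes raise in inflammation and that neutrophils store in their granules. It was at 0.251, 0.0831 and 0.0286 FPKM in MPTP plus running libraries, at 0.203, 0.532 and 1.36 FPKM in MPTP libraries and at 0.308, 0.430 and 0.207 FPKM in vehicle libraries. MPTP replicate 3 was highest, at 47.6 times MPTP plus running replicate 3, the lowest, and the groups overlapped through MPTP plus running replicate 1. The means were 0.121 ± 0.116 FPKM with MPTP plus running, 0.700 ± 0.598 FPKM with MPTP and 0.315 ± 0.112 FPKM with vehicle (SD, n = 3 each). The exact two-sided permutation p was 0.2 between MPTP plus running and MPTP, where the smallest possible is 0.1. In a fit with no filter on low values the same difference was -0.55 (SE 0.22, unadjusted p = 0.0397, limma adjusted p = 1 over 35406 genes).

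The 10 neutrophil markers summed to 2.32, 1.04 and 0.808 FPKM in MPTP plus running libraries, 5.18, 7.93 and 8.98 FPKM in MPTP libraries and 4.55, 8.03 and 7.99 FPKM in vehicle libraries. All 3 MPTP plus running libraries were below every other library. The 3 neutrophil markers that were tested, the calprotectin genes S100a8 and S100a9 and the granule gene Ngp, did not overlap between MPTP plus running and MPTP, where 8.02% of all tested genes did not. S100a8 had a log2 fold change of -1.03 (SE 0.15, unadjusted p = 9e-05, limma adjusted p = 0.288). Elane and Ly6g, further neutrophil genes, were listed at 0 in 6 of the 9 libraries each. The part of blood or neutrophil RNA in the level of Lcn2 was not tested.

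**Figure D2:**
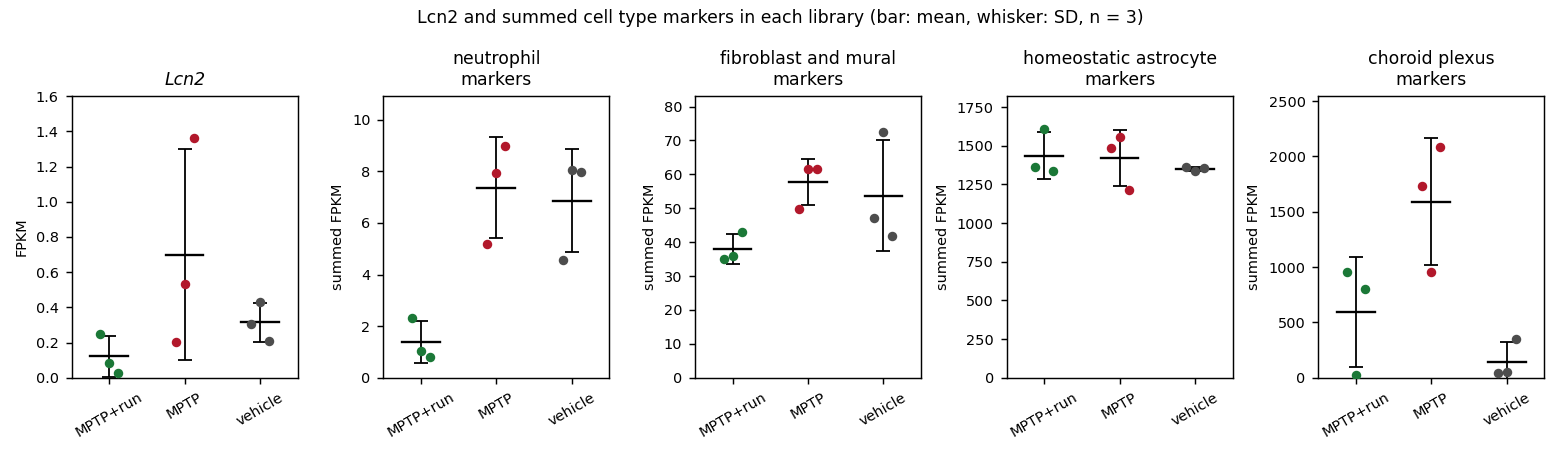
FPKM of Lcn2 and summed FPKM of 4 fixed marker lists (vertical axes start at 0) in MPTP plus running, MPTP and vehicle libraries. Points are libraries, bars are means and whiskers are SD (n = 3). The neutrophil sum is at 0.808 to 2.32 FPKM in MPTP plus running libraries and at 5.18 to 8.98 FPKM in MPTP and 4.55 to 8.03 FPKM in vehicle libraries, while Lcn2 overlaps between the groups.

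Timp1 encodes a secreted inhibitor of matrix metalloproteinases. It was at 0.406, 0.171 and 0.620 FPKM in MPTP plus running libraries, at 0.891, 0.664 and 0.285 FPKM in MPTP libraries and at 0.314, 1.20 and 0.725 FPKM in vehicle libraries. Values differed by up to 6.98 times between libraries with no separation of the groups, and the log2 fold change between MPTP and vehicle was -0.10 (SE 0.22, interval -0.60 to 0.40, limma adjusted p = 0.993). The gene (chromosome X, 20870166 to 20874735, plus strand) lies inside the span of the neuronal gene Syn1 on the opposite strand, and whether the counting used strand is not given in the sources used here. No exon of Syn1 overlaps an exon of Timp1 in the annotation. Lcn2 lies on chromosome 2 at 32384633 to 32388252 on the minus strand.

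Among the receptors and surface proteins, no group stood apart. Cd44, the receptor for the matrix sugar hyaluronan, was at 0.421, 0.588 and 0.526 FPKM in MPTP plus running libraries, at 0.406, 0.348 and 0.746 FPKM in MPTP libraries and at 0.398, 0.572 and 0.636 FPKM in vehicle libraries. Its MPTP libraries held both the lowest and the highest value of the 9. Osmr, the oncostatin M receptor subunit that pairs with gp130, was at 0.395, 0.464 and 0.566 FPKM in MPTP plus running libraries, at 0.379, 0.480 and 0.686 FPKM in MPTP libraries and at 0.372, 0.504 and 0.354 FPKM in vehicle libraries. The means of Osmr, 0.475 ± 0.0859, 0.515 ± 0.157 and 0.410 ± 0.0817 FPKM in MPTP plus running, MPTP and vehicle mice (SD, n = 3 each), did not differ beyond their spread (exact permutation p = 0.4 between MPTP and vehicle). S1pr3, a receptor for sphingosine 1-phosphate, was at 1.26, 1.31 and 1.49 FPKM in MPTP plus running libraries, at 1.41, 1.94 and 1.68 FPKM in MPTP libraries and at 1.47, 1.98 and 1.91 FPKM in vehicle libraries. It was lowest with running, with means of 1.35 ± 0.119 FPKM in MPTP plus running, 1.68 ± 0.265 FPKM in MPTP and 1.79 ± 0.272 FPKM in vehicle mice (SD, n = 3 each), though single libraries overlapped. Its log2 fold change was -0.24 between MPTP plus running and vehicle (SE 0.11, interval -0.49 to 0.010, limma adjusted p = 0.753). S1pr3 shares 45 exonic bases with the long noncoding RNA gene Gm32834 on the opposite strand, and its value is uncertain to that extent. Cd44 lies on chromosome 2 at 102811141 to 102901665 on the minus strand, Osmr on chromosome 15 at 6813577 to 6874969 on the minus strand and S1pr3 on chromosome 13 at 51408639 to 51422797 on the plus strand.

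The remaining pair encode enzymes. Steap4, a metalloreductase that reduces iron and copper, was at 0.135, 0.0845 and 0.148 FPKM in MPTP plus running libraries, at 0.142, 0.138 and 0.539 FPKM in MPTP libraries and at 0.0706, 0.185 and 0.127 FPKM in vehicle libraries. The MPTP mean of 0.273 ± 0.230 FPKM rested on replicate 3, and the other 2 MPTP libraries lay within the vehicle range (vehicle mean 0.127 ± 0.0571 FPKM, SD, n = 3 each, exact permutation p = 0.4). Aspg, an asparaginase, was at 0.615, 0.533 and 0.603 FPKM in MPTP plus running libraries, at 0.693, 0.982 and 0.876 FPKM in MPTP libraries and at 0.813, 1.06 and 0.569 FPKM in vehicle libraries. All 3 MPTP plus running libraries were below all 3 MPTP libraries, while vehicle replicate 3 was as low as the running mice. Its means were 0.584 ± 0.0445 FPKM in MPTP plus running and 0.850 ± 0.146 FPKM in MPTP mice (SD, n = 3 each), and the log2 fold change was -0.22 (SE 0.12, interval -0.49 to 0.045, limma adjusted p = 0.9999, exact permutation p = 0.1, the smallest possible). Steap4 lies on chromosome 5 at 7960457 to 7982213 and Aspg on chromosome 12 at 112106679 to 112127559, both on the plus strand.

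Across the comparisons, the test over all genes called none of the reactive astrocyte genes. Between MPTP and vehicle, which sets the toxin against saline, 3 of the 7 tested genes were higher and 4 lower. Their median log2 fold change was -0.040, against -0.0059 over all tested genes. In this comparison all 11 choroid plexus markers were higher (median 1.70, 10 at an unadjusted limma p under 0.05, 0 called), so it does not isolate the toxin. None of the 7 passed (limma, adjusted p from 0.991 to 0.993, 0 at an unadjusted p under 0.05), where 0.0125% of all tested genes passed and 4.09% were at an unadjusted p under 0.05 (2.61% up, 1.48% down). All 10 genes overlapped between MPTP and vehicle libraries, where 9.43% of all tested genes did not. The comparison of MPTP plus running with MPTP sets wheel running, begun after the first dose, against no wheel in mice given the toxin. All 11 choroid plexus markers were lower there (median -1.09, 5 at an unadjusted limma p under 0.05, 0 called), so it does not isolate running. Between these groups, 3 of the 7 were higher and 4 lower with a median of -0.001451, against -0.012 over all tested genes. Again none passed (1 at an unadjusted p under 0.05), where 0% of all tested genes passed and 3.99% were at an unadjusted p under 0.05 (1.11% up, 2.89% down). Of the 10 genes 9 overlapped between these groups, and Aspg did not, where 8.02% of all tested genes did not. Between MPTP plus running and vehicle, 2 were higher, Gfap and Serpina3n, and 5 lower with a median of -0.17, against -0.022 over all tested genes. None passed (1 at an unadjusted p under 0.05), where 0% of all tested genes passed, 6.54% were at an unadjusted p under 0.05 (3.12% up, 3.43% down). All 10 genes overlapped between these groups, where 15.6% of all tested genes did not. With all 6 MPTP-treated libraries set against vehicle none passed either (1 at an unadjusted p under 0.05, Serpina3n, with a log2 fold change of 0.32 and SE 0.14), where 0% of all tested genes passed and 5.98% were at an unadjusted p under 0.05 (3.23% up, 2.75% down). No gene of the 10 was free of overlap there, where 3.56% of all tested genes were. The comparisons share libraries and are not independent of each other. A p above the threshold does not show that levels were alike, and the intervals for Gfap allow changes of up to 0.69 on the log2 scale between MPTP and vehicle.

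**Figure D3:**
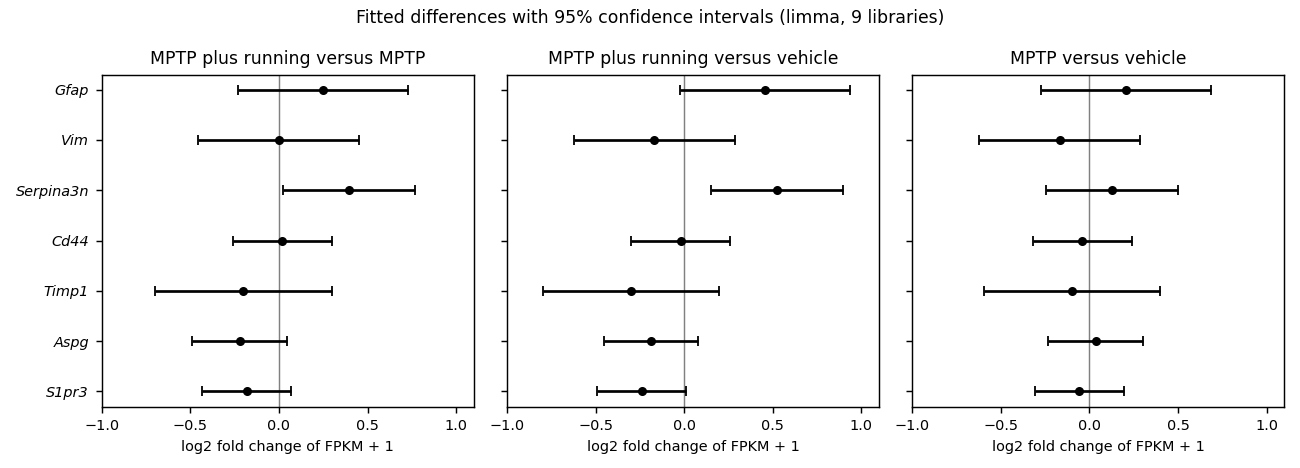
Log2 fold changes of FPKM + 1 (horizontal axis) for the 7 tested genes in 3 comparisons. Points are limma estimates and whiskers are 95% confidence intervals, which do not account for multiple testing. The interval for Serpina3n lies above 0 in both comparisons that involve running mice (0.024 to 0.77 against MPTP and 0.15 to 0.89 against vehicle).

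The order of the libraries differed between the 10 genes, and correlation among the genes was not tested. Vehicle replicate 2 ranked from 1 to 4 of 9 for each of the 10 genes. Vehicle replicate 1 had the lowest value of Gfap, Serpina3n and Steap4. MPTP replicate 3 had the highest value of Lcn2, Cd44, Osmr and Steap4, and it had the highest choroid plexus and neutrophil sums of the 9 libraries. Vehicle replicate 2 had the highest value of Vim, Timp1, Aspg and S1pr3, and it also had the highest sum of fibroblast and mural markers, 72.4 FPKM, where the other vehicle libraries had 47.1 and 41.7 FPKM. MPTP plus running replicate 2, with the highest Gfap, also had the highest sum of homeostatic astrocyte markers, 1609 FPKM. Its sum of the listed intermediate filament genes and cytoskeletal partners, 809 FPKM, was the highest as well. The other MPTP plus running libraries had 362 and 355 FPKM for that sum. How far the filament sum bears on Gfap was not tested. MPTP plus running libraries held the highest value of Gfap and of Serpina3n and the lowest of S1pr3, Timp1, Aspg and Lcn2. In the same libraries the fibroblast and mural markers summed to 35.1 to 43.1 FPKM, against 49.8 to 61.7 FPKM in MPTP libraries, with all 12 markers lower (median log2 fold change -0.32, 4 at an unadjusted p under 0.05, 0 called). All 10 endothelial markers were lower as well (median -0.29, 7 at an unadjusted p under 0.05, 0 called), where 2.89% of all tested genes were lower at that p. The part of vascular and meningeal RNA in the levels of Vim, Timp1, Cd44, Aspg and S1pr3 was not tested.

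**Figure D4:**
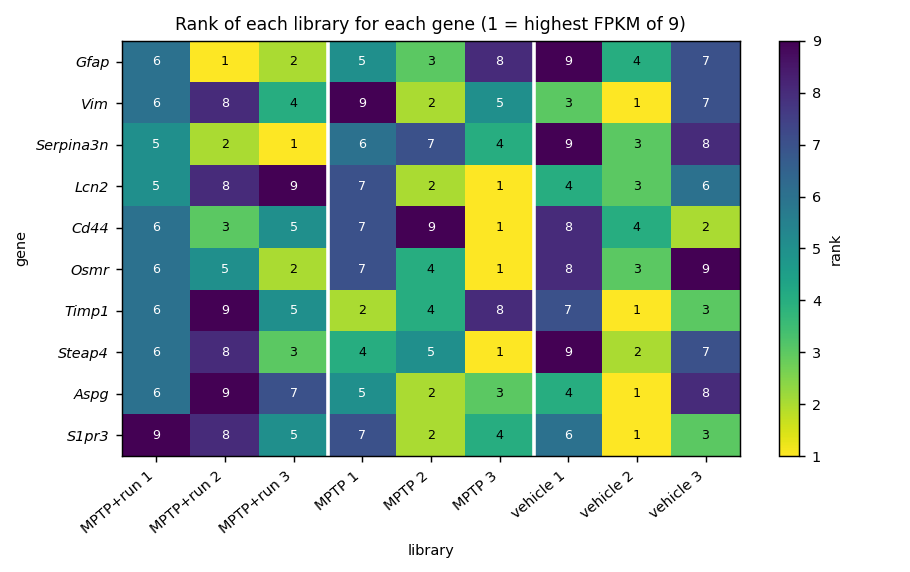
Rank of each library (columns) for each of the 10 genes (rows), where 1 is the highest FPKM of 9. MPTP replicate 3 holds rank 1 for Lcn2, Cd44, Osmr and Steap4, and vehicle replicate 2 holds rank 1 for Vim, Timp1, Aspg and S1pr3.

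Genes with a pattern like that of Gfap over the 9 libraries were sought among 7184 genes that averaged 5 FPKM or more, which of the other 9 leaves in only Serpina3n and Vim. The 5 nearest were Gpd1, Crtac1, Agfg2, Nubp2 and Pfn2. Their centred log2(FPKM + 1) differed from that of Gfap by a root mean square of 0.13, 0.14, 0.16, 0.16 and 0.17, where Gfap itself varied by 0.31. Gpd1, which encodes the cytosolic glycerol 3-phosphate dehydrogenase, was at 32.7, 40.4 and 34.7 FPKM in MPTP plus running libraries, at 28.8, 38.4 and 23.2 FPKM in MPTP libraries and at 22.8, 29.3 and 25.2 FPKM in vehicle libraries.

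Genes of the neighbouring reactive and signalling lists gave no call over all genes either. The 3 further genes of the general reactive set were Hspb1, a small heat shock protein, Cp, the ferroxidase ceruloplasmin, and Cxcl10, an interferon-induced chemokine. Hspb1 and Cp had log2 fold changes of 0.34 (SE 0.26) and 0.13 (SE 0.16) between MPTP and vehicle (limma adjusted p = 0.991 for both). Cxcl10, below the filter, was at 0.118, 0.0591 and 0.0819 FPKM in MPTP plus running libraries, at 0.266, 0.358 and 0.297 FPKM in MPTP libraries and at 0.0377, 0.115 and 0.0533 FPKM in vehicle libraries. All 3 MPTP libraries were above every other library for this gene (exact permutation p = 0.1, the smallest possible, against either group). Of all tested genes, 9.43% did not overlap between MPTP and vehicle and 8.02% between MPTP plus running and MPTP. Cxcl10 was not among the tested genes, and both comparisons share the MPTP libraries. Cxcl10 shares 133 exonic bases with Art3 and Cp shares 108 with Hps3, both on the opposite strand, so their values are uncertain to that extent.

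The list of 11 genes often called A1, a reactive profile induced by microglial factors, had 10 of its 11 members higher between MPTP and vehicle (median log2 fold change 0.15, 5 at an unadjusted p under 0.05 where 4.09% of all tested genes were, 0 called). Between MPTP plus running and MPTP 9 of the 11 were lower (median -0.44, 5 at an unadjusted p under 0.05 where 3.99% of all tested genes were, 0 called), a comparison that shares the MPTP libraries. Microglia markers were higher between MPTP and vehicle in 11 of 12 cases (median 0.12, 3 at an unadjusted p under 0.05, 0 called), and summed to 145 to 175 FPKM in MPTP plus running, 157 to 212 FPKM in MPTP and 140 to 170 FPKM in vehicle libraries. Their part in the A1 list was not tested. Those A1 genes with the smallest p were H2-D1, Gbp2 and Iigp1, which interferon also induces. Iigp1, an immunity-related GTPase, was at 0.414, 0.567 and 0.687 FPKM in MPTP plus running libraries, at 0.633, 3.40 and 3.16 FPKM in MPTP libraries and at 0.363, 0.367 and 0.403 FPKM in vehicle libraries (log2 fold change between MPTP and vehicle 1.17, SE 0.33, limma adjusted p = 0.864). MPTP replicate 1 was the low one. The 12 genes of the A2 list, a profile first described after ischaemia, had 4 tested members, all higher between MPTP and vehicle (median 0.28, 0 at an unadjusted p under 0.05, 0 called).

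Cytokines of the interleukin-6 family were partly at the limit of detection. Il6 was listed at 0 in 5 of the 9 libraries and Osm, the ligand of the oncostatin M receptor, in 3. Of 12 tested genes of gp130 and STAT3 signalling, 6 were higher and 6 lower between MPTP and vehicle (median -0.003790, 1 at an unadjusted p under 0.05, 0 called). That gene was Il6st, which encodes gp130, at 8.61, 10.9 and 9.59 FPKM in MPTP plus running libraries, at 7.50, 8.68 and 10.2 FPKM in MPTP libraries and at 12.5, 11.6 and 10.1 FPKM in vehicle libraries (log2 fold change -0.34, SE 0.13, limma adjusted p = 0.991). Stat3, which shares 72 exonic bases with Stat5a on the opposite strand, was at 3.95 to 4.95 FPKM in all 9 libraries.

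Among partners of single members, the lists of intermediate filament genes (4 of 9 higher between MPTP and vehicle), metalloproteinases and their inhibitors (3 of 10), sphingosine 1-phosphate genes (2 of 6), hyaluronan genes (4 of 8), asparagine metabolism (3 of 4) and lipocalin-2 receptors (0 of 1) had no called gene and none at an unadjusted p under 0.05. Of the other STEAP metalloreductases 2 of 3 were higher (1 at an unadjusted p under 0.05, 0 called). That gene, Steap1, was at 1.53, 0.0532 and 0.935 FPKM in MPTP plus running libraries, at 2.67, 1.44 and 3.15 FPKM in MPTP libraries and at 0 (as listed), 0.0392 and 1.23 FPKM in vehicle libraries. Its highest library, MPTP replicate 3, was also the one with the highest choroid plexus sum. Of the 15 homeostatic astrocyte markers, 9 were higher and 6 lower between MPTP and vehicle (median 0.0083, 1 at an unadjusted p under 0.05, 0 called). The exception was Gja1, the gap junction gene connexin 43, with a log2 fold change of -0.77 (SE 0.32, limma adjusted p = 0.991). It was at 25.8, 13.8 and 8.08 FPKM in MPTP libraries and at 26.9, 23.2 and 25.3 FPKM in vehicle libraries. MPTP replicate 1 thus lay within the vehicle range.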

How the data were processed

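RNA from 9 substantia nigra libraries was enriched for mRNA on beads and sequenced on an Illumina NovaSeq6000, per the labels' protocols. The submitters' processing notes name bcl2fastq, HTSeq, DESeq2 and the build GRCm38, without versions. The aligner, the tool behind the FPKM and the strandedness of counting were not given in the sources used here. FPKM values were used as the authors deposited them. Of 55335 gene IDs, 55154 matched a GENCODE M21 symbol and 181 did not.

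Tests used limma 3.58.1 (R 4.3.3) with its trend option on log2(FPKM + 1). The 15997 genes that averaged 0.5 FPKM or more entered, with all 9 libraries in 1 fit (6 residual and 2.68 prior degrees of freedom), two-sided, adjusted by Benjamini-Hochberg over all tested genes at 0.05. Fold changes on this scale understate those of low genes. The fit was tested on simulated data. Single values used exact permutation tests. Figures were drawn with matplotlib 3.10.9 (Python 3.11.15).

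The members and lists were chosen with earlier results of these data known. Named genes are all 10 members, up to 3 genes with the smallest p between MPTP and vehicle from each other list where they matter to the members, and the 5 genes with the pattern nearest to that of Gfap. Outside this rule, and chosen after their values were seen, are Cxcl10, Il6, Osm, Stat3, Elane, Ly6g, Slc6a3, Aqp4, Slc1a2 and Glul. Deviations from group means of same-numbered MPTP and vehicle libraries correlated at 0.25, 0.33 and 0.11. The fits in the Results have no block. An alternative fit of all 9 libraries took the replicate number as a block in every comparison. The labels give the numbers no meaning. For MPTP plus running the correlations were -0.34, -0.13 and 0.25 with MPTP and -0.26, 0.006915 and 0.24 with vehicle. Alternatives changed the pseudocount, filter, scaling, weights, covariate, block and libraries.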

Additional observations from a re-analysis of the deposited data

How the results depend on the processing

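The count of 0 reactive astrocyte genes past the threshold held in all 4 comparisons under every other setting that gave a value, up to 19 a comparison, the lowest adjusted p being 0.361 over 521 refits of a single gene. With the replicate block, 3 genes passed between MPTP and vehicle over all genes and 0 of the 10, and the block changed no call among the 10. With the block, Gfap, Serpina3n and S1pr3 were at an unadjusted limma p of 0.0115, 0.00912 and 0.0367 between MPTP plus running and vehicle (adjusted p = 0.706 for each). For all MPTP-treated libraries against vehicle, Gfap and Serpina3n were at 0.0245 and 0.0366 (limma adjusted p = 0.735 for both). Without the block Serpina3n alone was under 0.05 in each of these comparisons. The same-number correlations of MPTP plus running were mixed in sign. Over all genes, the 2 calls between MPTP and vehicle were 0 with the choroid plexus covariate, 0 when scaled to the astrocyte marker score (an alternative chosen after seeing the data) and 0 with only the groups compared. They ranged from 0 to 32 when 1 library was left out, with 32 without MPTP replicate 1, 4 without vehicle replicate 1, 1 without vehicle replicate 3, and 0 without MPTP replicate 2, MPTP replicate 3 or any MPTP plus running library. Between MPTP plus running and MPTP the count of 0 was 3 with no filter, 1 with the same FPKM sum, 1 with array weights, and 0 to 25 when 1 library was left out (25 without MPTP replicate 1, 2 without MPTP replicate 2, 1 without MPTP replicate 3 or MPTP plus running replicate 1 or 2). Between MPTP plus running and vehicle it was 0 to 2 (2 without vehicle replicate 1 or 2, 1 without MPTP plus running replicate 1 or 2), and for all MPTP-treated libraries against vehicle 0 to 18 (18 without MPTP replicate 1, 3 without vehicle replicate 1, 2 without vehicle replicate 2). The causes were not tested.

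Fitted differences near 0 turned sign. When 1 library was left out, the log2 fold change for MPTP against vehicle ranged for Vim from -0.31 to 0.033, for Cd44 from -0.11 to 0.032, for S1pr3 from -0.14 to 0.016, for Aspg from -0.065 to 0.13, for Timp1 from -0.29 to 0.082. When 1 library was left out, the log2 fold change for MPTP plus running against MPTP ranged for Vim from -0.20 to 0.14, for Cd44 from -0.053 to 0.063. When 1 library was left out, the log2 fold change for MPTP plus running against vehicle ranged for Cd44 from -0.087 to 0.027. When 1 library was left out, the log2 fold change for all MPTP-treated libraries against vehicle ranged for Cd44 from -0.096 to 0.017, for Aspg from -0.18 to 0.020. For MPTP against vehicle, Aspg (0.035) was at -0.0002707 with the same FPKM sum and -0.046 with array weights. For MPTP plus running against MPTP, Vim (-0.001451) was at 0.002294 with a pseudocount of 0.1, 0.016 with quantile normalization, 0.21 with array weights and 0.002087 with the choroid plexus covariate, and Cd44 (0.019) was at -0.016 when scaled to the astrocyte marker score. For MPTP plus running against vehicle, Cd44 (-0.021) was at 0.020 with quantile normalization. The median over the tested genes of the 10 ranged from -0.11 to 0.082 between MPTP and vehicle when 1 library was left out and was 0.067 with no filter. Gfap and Serpina3n kept a positive sign under every setting in all 4 comparisons. Lcn2, Osmr, Steap4, Cd44, Timp1 and Aspg average less than 1 FPKM, and how far depth limits their precision was not tested. No value came from fitting only the groups compared for all MPTP-treated libraries against vehicle. With 3 libraries a group, an exact test cannot go below 0.1.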
